A study of Mus musculus with 4 samples.

Results

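Sterol synthesis and its control were followed through 29 genes chosen by their known function, out of 55357 gene identifiers in the deposited count table. They comprise 7 genes of the mevalonate steps, 11 of squalene and late sterol synthesis, 7 of the control of the SREBP transcription factors and 4 of cholesterol traffic and storage. All 29 were found by symbol and all passed the filter on low counts. The RNA came from C57BL/6 mouse testis cells taken at an age of 7 days. The 2 RIP libraries hold RNA precipitated with a DDX20 antibody, and the 2 input libraries were made without antibody from 10% of the total RNA. All cells had been irradiated with 200 mJ/cm2 of 254 nm light, which crosslinks RNA to protein, and the antibody catalogue numbers given for the RIP libraries differ in 1 character. DDX20 (Gemin3) is a DEAD-box helicase of the SMN complex, which assembles spliceosomal small nuclear RNPs. There is no control antibody among the samples analysed, and a higher level in RIP is therefore a larger share of the precipitated RNA than of the input and does not show binding.

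Cholesterol is built from acetyl-CoA. The mevalonate steps make isoprenoid units, which are joined to squalene, closed into lanosterol and trimmed in the endoplasmic reticulum to cholesterol. When sterol is scarce, SCAP carries the SREBP precursors to the Golgi, where the site-1 and site-2 proteases release the active factors that switch on the genes of the pathway, and when sterol is plentiful the INSIG proteins hold SCAP back. In the testis, Leydig cells turn cholesterol into androgens, and dividing germ and Sertoli cells need it for membranes.

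Among the 29 messages, 15 were called higher in RIP, 11 lower and 3 were not called, at an adjusted p of 0.05. Of all 17422 genes tested, 38.7% were called higher and 38.6% lower by the same rule. All 29 are coding genes, and of the 14686 coding genes tested 6443 were higher and 5145 lower. The median log2 fold change of the sterol genes was 0.28, against -0.05 for all genes tested and 0.10 for the coding genes. That direction depends on the scaling: with total counts in place of the trimmed mean of M values (TMM), 12 sterol genes were higher and 14 lower and their median was -0.07, while the median of all genes moved to -0.40 and 28.7% of all genes were higher and 50.8% lower. With only genes of at least 5 CPM (counts scaled to library size) in 2 libraries kept, 13 sterol genes were higher and 14 lower with a median of 0.035, against 43.7% and 43.9% of the genes tested. Fold changes below are on the TMM scale unless another is named. The RIP libraries did not overlap the input libraries for 28 of the 29 genes, as for 88% of all genes.

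By group, 6 of 7 SREBP control genes rose and 6 of 11 genes of squalene and late sterol synthesis fell. The difference between groups was not tested. With the trend of fold change on coding length taken out as an offset, 4 of the 7 were higher and 2 lower, and of the 11 genes 5 were higher and 3 lower. By that offset 44.7% of 14686 coding genes were higher and 29.1% lower. The medians were then 0.18 for SREBP control and -0.036 for squalene and late sterol synthesis, against 0.13 for all coding genes. A difference of at least 2-fold was called for 5 genes higher, namely Npc1, Lss, Srebf1, Srebf2 and Sqle, and for 3 lower, namely Fdps, Tm7sf2 and Idi1. By that rule 17.1% of all genes were higher and 23.5% lower.

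**Figure D1:**
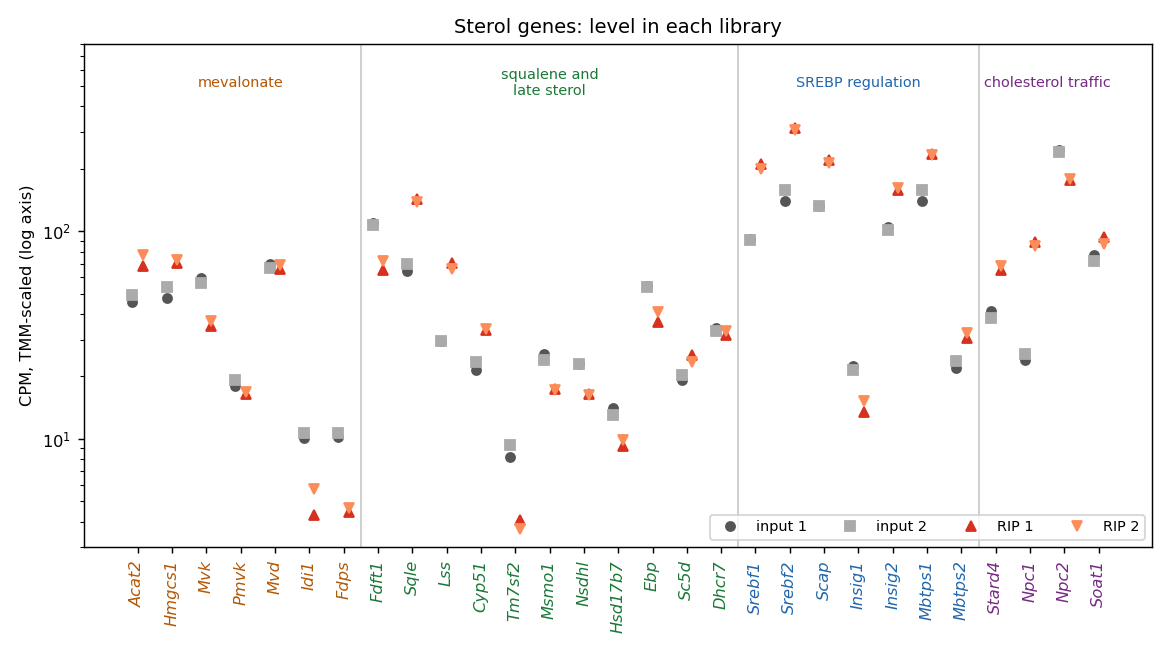
Level of each of the 29 sterol genes in each library, in CPM with TMM scaling on a log axis, 1 symbol per library and genes ordered by group. Srebf1, Srebf2, Scap, Insig2, Mbtps1 and Mbtps2 stand higher in both RIP libraries than in both input libraries, and Insig1 stands lower.

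The mevalonate steps showed 2 genes higher, 3 lower and 2 not called, with a median log2 fold change of -0.15. Acat2, the cytosolic thiolase that joins 2 acetyl-CoA units, stood at 45.7 and 49.5 CPM in the input libraries and at 68.5 and 76.9 CPM in RIP. Both RIP values lay above both input values, a log2 fold change of 0.61 ± 0.0592 (SE, n = 2 libraries per group). Hmgcs1, the HMG-CoA synthase, rose from 51.0 ± 4.56 to 71.8 ± 1.47 CPM (mean ± SD, n = 2 per group here and below).

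The kinases and the isomerase that follow did not share that direction. Mvk, mevalonate kinase, fell from 58.0 ± 1.91 to 36.2 ± 1.36 CPM. Pmvk, the phosphomevalonate kinase, was measured at 17.9 and 19.2 CPM in input and at 16.6 and 16.9 CPM in RIP, a log2 fold change of -0.15 that did not pass the test (adjusted p = 0.142, edgeR quasi-likelihood, Benjamini-Hochberg adjustment). Mvd, the decarboxylase and the group's most abundant message, was the one sterol gene whose groups overlapped, at 69.5 and 66.7 CPM in input against 65.9 and 68.9 CPM in RIP. Its log2 fold change of -0.016 ± 0.0508 did not pass either. With total counts Pmvk (-0.50) and Mvd (-0.36) were called lower.

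Idi1, which isomerises isopentenyl diphosphate, and Fdps, which makes farnesyl diphosphate from it, had low counts and fell most in the group. Fdps was counted at 10.2 and 10.7 CPM in input and at 4.43 and 4.64 CPM in RIP, a log2 fold change of -1.20 ± 0.145. Idi1 fell from 10.4 ± 0.359 to 5.01 ± 1.02 CPM, with RIP values of 4.29 and 5.74 CPM. These values rest on few reads: Fdps had 252 and 259 counts in the input libraries and 150 and 157 in RIP.

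Squalene and late sterol synthesis held 4 genes higher, 6 lower and 1 not called, with a median log2 fold change of -0.49. The steps from squalene to the ring and its first demethylation were higher. Sqle, squalene epoxidase, was measured at 64.8 and 69.6 CPM in input and at 143 and 138 CPM in RIP, a 2.09-fold difference. Lss, the synthase that closes the ring to lanosterol, had the largest increase of the enzymes among the 29, from 29.7 and 29.8 CPM to 70.1 and 65.9 CPM (log2 fold change 1.19 ± 0.0618). Cyp51, the lanosterol demethylase, rose from 22.5 ± 1.38 to 33.7 ± 0.211 CPM.

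The step before these and most of those after them were lower. Fdft1, squalene synthase, fell from 108.9 ± 1.26 to 68.5 ± 4.56 CPM. Per kb of transcript, mean levels in input were 29.4 CPM for Fdft1 and 24.4 for Sqle, and in RIP 18.5 and 51.0. Tm7sf2, a sterol C14 reductase, had the group's largest decrease, from 8.19 and 9.31 CPM to 4.08 and 3.70 CPM (log2 fold change -1.17 ± 0.160). Msmo1 (-0.52), Nsdhl (-0.49) and Hsd17b7 (-0.50), which act in turn to remove the methyl groups at C4, fell by similar amounts on the log2 scale. Ebp, the sterol isomerase, fell from 54.3 ± 0.170 to 38.7 ± 3.01 CPM.

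Sc5d and Dhcr7 close the pathway. Sc5d, the C5 desaturase, was called higher at 0.31 ± 0.0840 with TMM scaling, and it was not called with total counts (-0.040), upper-quartile scaling (-0.033) or the stricter filter of 5 CPM (0.065). Dhcr7, the 7-dehydrocholesterol reductase, was counted at 34.4 and 33.2 CPM in input and at 31.8 and 33.1 CPM in RIP. The RIP values lay just below those of input, and the log2 fold change of -0.058 did not pass the test (adjusted p = 0.459, edgeR quasi-likelihood, Benjamini-Hochberg adjustment), though it did with total counts (-0.41).

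The SREBP control genes rose with 1 exception, with a median log2 fold change of 0.65 (0.18 with the coding length offset). Srebf2, which encodes the factor that mainly drives sterol genes, was the most abundant of them, at 140 and 158 CPM in input and at 315 and 310 CPM in RIP. Srebf1, whose products mainly drive fatty acid genes, rose from 91.7 and 90.8 CPM to 212 and 199 CPM. Both RIP libraries lay above both input libraries for each factor. The log2 fold changes were 1.17 ± 0.0388 for Srebf1 and 1.07 ± 0.0385 for Srebf2. Scap, the escort protein, rose from 133 ± 0.115 to 216 ± 4.61 CPM. Mbtps1, the site-1 protease, rose from 149.5 ± 13.5 to 234 ± 0.677 CPM. Both changed sign with an offset for coding length, to -0.27 for Scap and -0.19 for Mbtps1. With the gene length offset Scap was still called higher (0.22) and Mbtps1 was not called (-0.040). With the transcript length offset both were called higher, at 0.30 and 0.23. Mbtps2, the site-2 protease, rose from 22.9 ± 1.21 to 31.6 ± 1.07 CPM, a log2 fold change of 0.47 that shrank to 0.12 with total counts and did not pass the test there.

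The INSIG pair split. Insig1 was measured at 22.5 and 21.5 CPM in input and at 13.4 and 15.2 CPM in RIP, and Insig2 at 105 and 102 CPM in input and at 159 and 161 CPM in RIP. Insig1 was lower in both RIP libraries and Insig2 higher, with log2 fold changes of -0.62 ± 0.0945 and 0.63 ± 0.0383. With the coding length offset the call for Insig1 was lost (-0.044, adjusted p = 0.683, edgeR quasi-likelihood), and Insig2 stood at 1.33. With the gene length offset Insig1 was still called lower (-0.36) and Insig2 higher (0.80). The transcript length offset kept both calls, at -0.66 and 0.59. Insig1 is itself a classic SREBP target gene. The 2 messages have the same annotated length, 2697 nt each in their best-ranked transcripts, with 777 and 675 coding nt, and their coding sequences are 69.3% identical over 644 aligned bases. The stretch of 120 ungapped coding bases where they are most alike is shown to let a reader see that reads of the pair can be told apart, with the 25 bases that differ in capitals (coding positions 374 to 493 of Insig1 and 260 to 379 of Insig2, GENCODE M21).
Insig1: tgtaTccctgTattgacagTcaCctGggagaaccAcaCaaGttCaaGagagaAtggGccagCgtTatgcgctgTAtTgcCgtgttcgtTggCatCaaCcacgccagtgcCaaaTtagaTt
Insig2: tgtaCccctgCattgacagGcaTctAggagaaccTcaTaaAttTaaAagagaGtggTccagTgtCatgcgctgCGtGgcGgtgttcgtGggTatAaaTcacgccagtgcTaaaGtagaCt

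Ratios within a library do not depend on the scaling between libraries, but they do move with length where the 2 genes differ in it. Insig2 had 4.68 and 4.72 times the counts of Insig1 in the input libraries and 11.8 and 10.6 times in RIP. Npc1 had 0.0972 and 0.106 times the counts of Npc2 in input and 0.502 and 0.478 times in RIP. Neither ratio overlapped between the groups. Npc1 has 3831 coding nt and Npc2 447, and with the coding length offset their log2 fold changes lay close together, at 0.84 and 0.60. With the gene length offset they stood at 1.09 and -0.71, and with the transcript length offset at 1.26 and -0.69. Srebf1 had 0.655 and 0.576 times the counts of Srebf2 in input and 0.673 and 0.644 times in RIP, and these ranges overlapped. Mbtps1 had 6.36 and 6.70 times the counts of Mbtps2 in input and 7.62 and 7.24 times in RIP. With 2 libraries a group, a 2-sided exact permutation test cannot go below p = 0.333, the value reached by 3 of the 4 ratios (p = 0.444 after Benjamini-Hochberg adjustment over the 4), while that of Srebf1 to Srebf2 gave p = 0.667.

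Cholesterol traffic held the largest rise and the most abundant input message of the 29. Npc1, the lysosomal membrane protein that exports cholesterol, rose from 23.9 and 25.5 CPM to 88.6 and 85.4 CPM, a 3.52-fold difference (log2 fold change 1.82 ± 0.0599). Npc2, the small soluble protein that hands cholesterol to NPC1, went the other way, from 246 and 242 CPM to 177 and 179 CPM (log2 fold change -0.46 ± 0.0320). With the coding length offset Npc1 shrank to 0.84 and Npc2 turned to 0.60 and was called higher, so that the opposed directions were lost. They were kept with the gene length offset (1.09 and -0.71) and the transcript length offset (1.26 and -0.69). Neither gene's groups overlapped. Stard4, a cytosolic sterol carrier, rose from 39.7 ± 2.04 to 66.6 ± 1.76 CPM. Soat1, which esterifies cholesterol for storage, was called higher at 0.28 ± 0.0487 with TMM scaling, but it was not called with total counts (-0.070), upper-quartile scaling (-0.064) or the stricter filter of 5 CPM (0.035). It was called lower with the gene (-0.37) and transcript (-0.66) length offsets and higher with the coding length offset (0.11).

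Levels of different genes can be compared only per length. Divided by the length of the best-ranked transcript, Npc2 led in input at 73.9 CPM per kb, followed by Mvd (38.8), Insig2 (38.4), Mvk (34.9) and Mbtps1 (34.5). Hsd17b7 (2.94) and Idi1 (3.43) were lowest on that scale. In RIP the leaders were Srebf2 at 61.5 CPM per kb, Insig2 at 59.4, Mbtps1 at 54.0 and Npc2 at 53.9, so that 3 of the first 4 are SREBP control genes.

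Across all coding genes, fold change moved with coding length, and so it did among the sterol genes. Coding genes were divided by coding length into 3 classes of near-equal size, with bounds at 1017 and 1842 nt. Of the 6 sterol genes in the longest class, Lss, Srebf1, Srebf2, Scap, Mbtps1 and Npc1, all 6 rose, and 74.2% of all coding genes of that class rose. Of the 10 in the shortest class, 3 rose and 6 fell, against 13.2% and 67.2% of all coding genes. The 3 that rose were Sc5d, Insig2 and Stard4. The middle class had 6 higher and 5 lower of 13, against 44.3% and 28.3%. Spearman's rho between log2 fold change and coding length was 0.550 over the 29 genes and 0.637 over 14686 coding genes, given as a description, since the genes share libraries and are not independent. Transcript length gave 0.632 and 0.582 and the GC content of the coding sequence 0.066 and 0.0347.

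**Figure D2:**
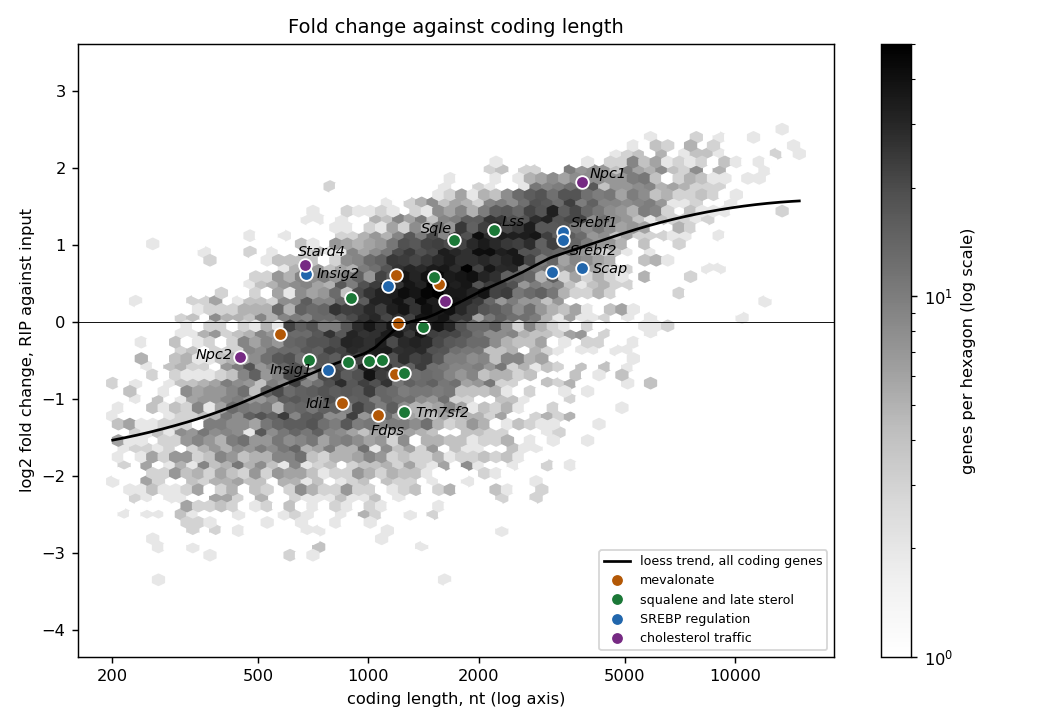
Log2 fold change of RIP against input (vertical axis) by coding length in nt (log axis), with grey hexagons counting 14564 of 14686 coding genes, those from 200 to 15000 nt and within 4 log2 units of 0, the loess trend of all coding genes as a line and the sterol genes as coloured points. Stard4 and Insig2 lie above the trend at their length and Fdps and Tm7sf2 below it.

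Once the trend with coding length was taken out as an offset, 16 of the 29 were called higher, 8 lower and 5 not called, where 44.7% of 14686 coding genes were higher and 29.1% lower. The median of all coding genes stood at 0.13 after the offset and that of the sterol genes at 0.18. Some members moved across zero. Scap and Mbtps1 were then called lower, Npc2 (0.60), Ebp (0.19) and Pmvk (0.68) were called higher, and Insig1 (-0.044), Msmo1 (-0.036) and Hsd17b7 (-0.12) were no longer called. Of the 7 SREBP control genes 4 were called higher with the offset, Srebf1 at 0.28, Srebf2 at 0.18, Mbtps2 at 0.64 and Insig2 at 1.33.

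Under every scaling and length offset that was run, 15 of the 26 calls kept their direction, 10 higher and 5 lower. The share of all genes that kept their call by that rule was not counted, so these numbers describe the sterol genes only. On the higher side were Acat2, Hmgcs1, Sqle, Lss, Cyp51, Srebf1, Srebf2, Insig2, Stard4 and Npc1, and on the lower side Mvk, Idi1, Fdps, Fdft1 and Tm7sf2, each called under TMM, RLE, upper-quartile and total-count scaling and with the offsets for gene, coding and transcript length. With the coding offset, Stard4 and Insig2, whose coding sequences are short, stood 1.45 and 1.33 log2 units above the trend at their length. With the transcript length offset they stood only 0.21 and 0.59 units above that trend. Fdps and Tm7sf2 stood at -0.90 and -1.15 after the coding offset and at -0.42 and -0.47 after the transcript offset.

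**Figure D3:**
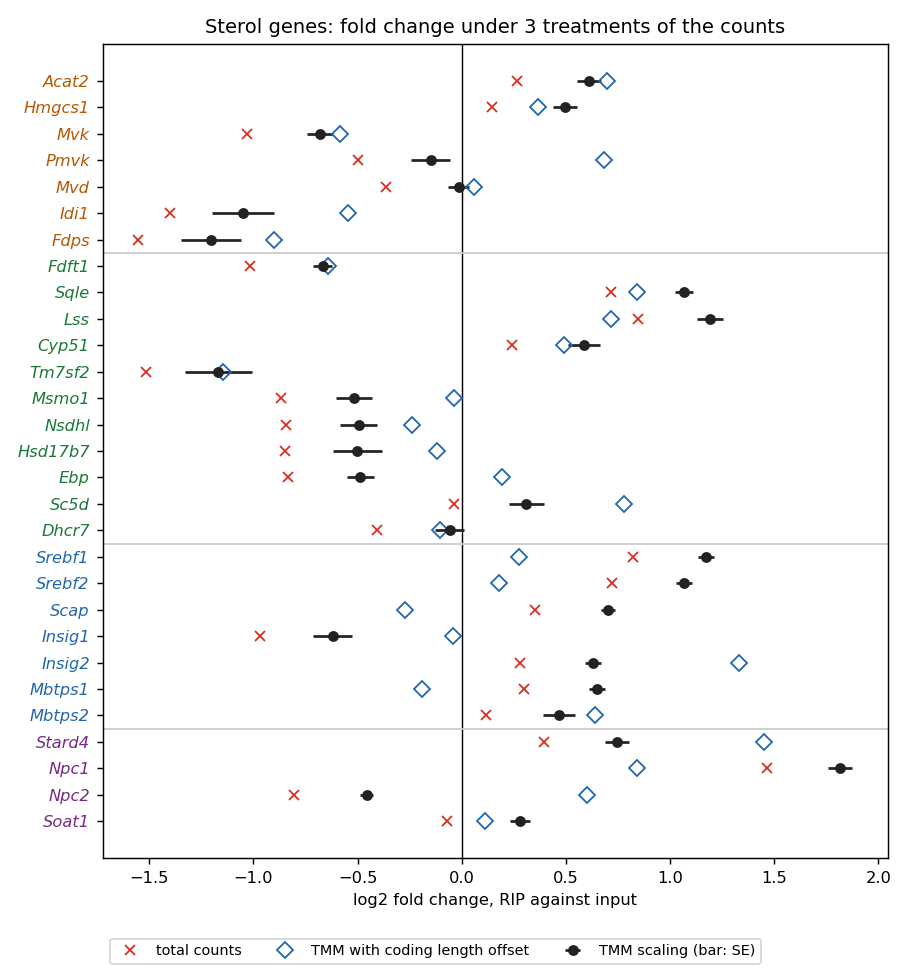
Log2 fold change of RIP against input for each sterol gene under TMM scaling (black points, bars are the standard error), under total counts (red crosses) and under TMM scaling with an offset for coding length (blue diamonds), with genes ordered by group. Total counts place every gene lower by about the same amount, while the offset moves long genes such as Scap down and short genes such as Npc2 up.

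Other genes around the pathway were followed through 4 lists of sterol-related genes. Of 10 other sterol and isoprenoid enzymes 8 were tested, and 3 rose and 4 fell, where 38.7% and 38.6% of all genes did. That count rests on the scaling: it was 0 higher and 5 lower with total counts, and 5 higher and 3 lower with the coding length offset. Of all genes 28.7% were higher and 50.8% lower with total counts, and of coding genes 44.7% and 29.1% with the offset. Acat1, the mitochondrial thiolase, was the most abundant that rose (0.34 ± 0.0420, but -0.013 with total counts), and Nus1, a subunit of the enzyme that makes dolichol chains, the most abundant that fell (-0.20 ± 0.0451, but 0.27 with the coding length offset).

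Genes of sterol-linked protein degradation in the endoplasmic reticulum were mostly higher with TMM scaling, and fewer of them were higher with total counts. Those of cholesterol uptake, export and storage moved in both directions. In the degradation list 6 of 8 rose and 1 fell, where 38.7% and 38.6% of all genes did. With total counts 3 were higher and 2 lower, where 28.7% and 50.8% of all genes were. Erlin1 turned from higher (0.15) to lower (-0.19) there. Named from it are Vcp, the segregase that pulls proteins from the membrane, at 431 ± 6.82 and 1420.0 ± 22.5 CPM in input and RIP, and Aup1, which was lower (-0.89 ± 0.0510). In the list for uptake, export and storage 15 of 16 genes were tested, and 6 rose and 7 fell (4 and 9 with total counts). Osbp, an oxysterol-binding lipid transporter, rose by 1.20 ± 0.0368 on the log2 scale, while Apoe, the apolipoprotein, fell from 326 ± 2.17 to 147 ± 2.77 CPM.

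Fatty acid enzymes under SREBP control were mostly higher with TMM scaling. The test called 10 of 13 higher and 1 lower, against 38.7% and 38.6% of all genes, and their median log2 fold change was 0.52. With total counts 8 were higher and 2 lower, where 28.7% and 50.8% of all genes were. Their median was then 0.17, against -0.40 for all genes. Scd2, a stearoyl-CoA desaturase, was the most abundant, at 895 ± 1.46 CPM in input and 1623 ± 39.6 CPM in RIP, and Elovl5, an elongase, was the 1 that fell (-0.43 ± 0.0468, but 0.037 with the coding length offset). With that offset 7 of the 13 were higher and 1 lower, beside 44.7% and 29.1% of all coding genes. Fasn (1.89) and Acaca (2.14), the synthase and the carboxylase of fatty acid synthesis, have coding sequences of 7512 and 7035 nt and shrank to 0.50 and 0.79 with the offset. Acacb, the other carboxylase, went from 1.21 to -0.16 and was no longer called.

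**Figure D4:**
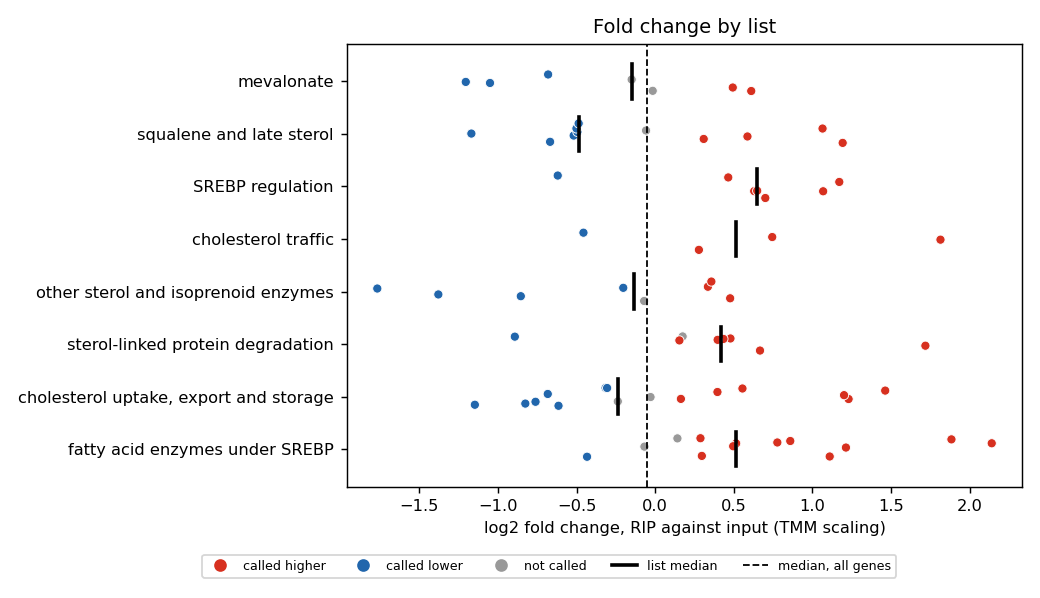
Log2 fold change of RIP against input (horizontal axis, TMM scaling) for the tested genes of the 4 sterol groups and the 4 further lists, 1 point per gene coloured by its call, with each list's median as a bar and the median of all genes as a dashed line. The medians run from -0.49 for squalene and late sterol synthesis to 0.65 for SREBP control.

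Cell type markers moved with the comparison too. Their calls are on the TMM scale, where 38.7% of all genes tested were higher and 38.6% lower. The marker lists were not counted with total counts or with a length offset. All 6 Leydig cell markers fell, from summed levels of 324 and 314 CPM in input to 146 and 149.6 CPM in RIP, and none was at 0. Of 10 Sertoli markers 2 rose and 7 fell, with sums of 2222 and 2212 CPM in input and 1287 and 1291 CPM in RIP. Of 10 germ cell markers 4 rose and 5 fell, with sums of 884 and 875 CPM in input and 512 and 503 CPM in RIP. Of 7 stromal and peritubular markers 3 rose and 2 fell. Their median was 0.12 on the log2 scale, with sums of 3310.0 and 3311 CPM in input and 7369 and 7170.2 CPM in RIP. Col1a1 (1.59) and Col1a2 (1.04), which make up most of that sum, and Pdgfra (0.35) rose, while Dcn (-0.73) and Acta2 (-0.98) fell. All 5 red blood cell markers, 3 of 4 endothelial and 4 of 5 macrophage markers fell. Germ, Sertoli and Leydig cell markers of the labelled tissue were thus all present, and their part in the sterol results was not tested. A marker's level in RIP is a share of precipitated RNA, and in these bulk samples it does not tell the number of cells of a type from their RNA per cell or from how much of that RNA was precipitated.

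A few counts may be shared with neighbours or copies. Acat2 lies beside Acat3, whose coding sequence is 97.7% identical to it and which had 48 and 53 counts in input and 55 and 56 in RIP, against 1128 and 1195, and 2316 and 2602, for Acat2. A read that lies wholly within the following 120 coding bases, shared without a difference (coding positions 52 to 171), cannot be assigned to either copy. Reads were 150 nt long, and one not trimmed shorter extends beyond this stretch. Whether it then reaches a base that differs was not determined.
Acat2 and Acat3: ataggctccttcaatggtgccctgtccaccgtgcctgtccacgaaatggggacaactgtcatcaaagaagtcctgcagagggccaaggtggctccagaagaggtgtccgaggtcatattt
The kit does not mark strand, so Fdft1, whose end overlaps Ctsb on the opposite strand by 774 nt, and Npc1, which overlaps Rmc1 by 967 nt, can share reads with those genes. Ctsb had 8565 and 8392 counts in input and 10736 and 10501 in RIP. Tm7sf2 overlaps Vps51 on the same strand by 532 nt. Fdps overlaps another model on its strand, Gm43738, by 7512 nt, and Gm43738 had no counts in any input or RIP library. How reads in overlaps were counted was not given. If they were dropped, the counts of Fdps and Tm7sf2 are too low, which was not tested.

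In GRCm38, Insig1 (ENSMUSG00000045294.12) lies on chromosome 5 from 28071363 to 28078662 on the plus strand with 5 exons, and Insig2 (ENSMUSG00000003721.15) on chromosome 1 from 121304353 to 121332589 on the minus strand with 6. Srebf2 (ENSMUSG00000022463.9) lies on chromosome 15 from 82147181 to 82205379, Sqle (ENSMUSG00000022351.15) on chromosome 15 from 59315077 to 59331192, and Fdps (ENSMUSG00000059743.13) on chromosome 3 from 89093588 to 89101959.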

How the data were processed

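The authors deposited raw read counts per gene, with a column for each library. The submitters' processing notes name GRCm38 and the tools featureCounts, SAMtools, STAR 2.7.2b, cutadapt 4.1 and Trimmomatic 0.36. Their order, their settings and the annotation release were not given in the sources used here. The input libraries total 21913977 and 21416567 counts, the RIP libraries 38458014 and 37927689. From 65.4% to 67.4% of nonzero counts per library are even, as arises if a read pair counts as 2, and counts then overstate depth. Symbols, lengths and coordinates come from GENCODE M21 (GRCm38), where 52081 of the identifiers have a symbol. The version number matches for only 35, and counted gene models can differ from those printed. Coding, untranslated and transcript lengths refer to 1 transcript per gene, chosen by APPRIS rank and then by coding length.

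Genes were kept by filterByExpr, scaled by TMM (factors 0.88 to 1.13) and tested for RIP against input over all 4 libraries with edgeR 4.0.16 (robust quasi-likelihood fit) in R 4.3.3. P-values were adjusted by Benjamini-Hochberg over every gene tested, with a threshold of 0.05. The standard error was taken as log2 fold change over the root of the F statistic. The pipeline was tested on simulated data. Alternatives were RLE, upper-quartile and total-count scaling, other filters, DESeq2 1.42.0, limma-voom (limma 3.58.1), halved counts, omission of each library, a replicate block, a test against 1.5-fold, and loess offsets (span 0.3) for gene and coding length. An offset for transcript length was chosen after seeing the data.

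The sterol genes and all lists were chosen with earlier results of these data known. All 29 were named. Values per library were given for the most abundant, the most increased, the most decreased and the uncalled genes of each group, and from each further list the most abundant called gene per direction. Some genes of those lists are not reported here. The labels do not say that replicates came from separate cell preparations, and replicates lay near counting noise (median chi-square 1.19 and 1.15 times that of noise, against 61.2 between input 1 and RIP 1), so the p-values rest on the spread between these libraries, which can be technical only.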

Additional observations from a re-analysis of the deposited data

How the results depend on the processing

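The sterol genes kept 15 calls higher and 11 lower under RLE scaling, DESeq2, limma-voom and no low-count filter, and also without any 1 of the 4 libraries. With the stricter low-count filter there were 13 higher and 14 lower: Sc5d (0.065) and Soat1 (0.035) lost their calls, and Pmvk (-0.39), Mvd (-0.26) and Dhcr7 (-0.30) were called lower. Halved counts gave 15 and 12, with Pmvk added at -0.20. Over all genes, leaving out 1 library gave 6231 to 6569 higher and 5071 to 5815 lower. Tested against a change of 1.5-fold, 8 sterol genes were higher and 5 lower, and over all genes 4210 and 4426, as a stricter test must give fewer. With the coding length offset 4276 genes were lower, and with the transcript length offset 4319, both over 14686 coding genes in place of 17422.

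Some single genes changed sign. With upper-quartile scaling and total counts, Sc5d stood at -0.033 and -0.040, Soat1 at -0.064 and -0.070 and Acat1 at -0.0066 and -0.013. Mvd, close to 0, stood at 0.0072 with RLE scaling, 0.0072 with DESeq2, 0.038 with no filter, and from -0.043 to 0.054 with 1 library left out (0.034 without input replicate 1, 0.054 without RIP replicate 1). Dhcr7 ran from -0.082 to 0.0079, the latter without RIP replicate 1. With the gene length offset Pmvk stood at 0.64, Mvd at 0.70, Ebp at 0.024, Mbtps1 at -0.040, Mbtps2 at -0.20 and Soat1 at -0.37. Mbtps2 and Soat1 were then called lower. With the coding length offset Pmvk stood at 0.68, Mvd at 0.056, Ebp at 0.19, Scap at -0.27, Mbtps1 at -0.19, Npc2 at 0.60, Nus1 at 0.27 and Elovl5 at 0.037. With the transcript length offset Pmvk stood at 0.84, Mvd at 0.44, Sc5d at -0.19 and Soat1 at -0.66. Sc5d and Soat1 were called lower there. The cause of these changes was not tested.

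The replicate number as a block left the sterol counts at 15 and 11 and gave 6734 genes higher over all genes. Deviations of same-numbered libraries correlated at 0.00449 over 9828 genes, which shows no pairing by number. Replicates lay near counting noise, so that check cannot exclude a pairing. Low counts limit Fdps, Idi1 and Tm7sf2, which had 125 to 259 counts per library.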
